A study of Mus musculus with 6 samples.

Results

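The growth factors of the VEGF and angiopoietin families, their receptors and a pair of endothelial junction genes were described here in the hearts of mice with chronic kidney disease (CKD). The genes were a list drawn up by name: Vegfa, Vegfb, Pgf, Kdr, Flt1, Angpt1, Angpt2, Tek, Pecam1 and Cdh5. All 10 of the 10 genes listed were measured, of 19505 named genes on the arrays, and each had a single probe set, so that no choice between probe sets was needed for them. The arrays held hearts of 3 sham and 3 CKD mice of the Balb/c strain, 1 array per heart. In CKD mice part of the right renal cortex was electrocoagulated and the left kidney was removed 2 weeks later, which is the 5/6 nephrectomy model. Sham mice had the abdomen opened and the kidneys left alone. Surgery was done at 8 weeks of age, in males by the account of the methods. The methods do not tell which of several sets of mice gave the array hearts. They describe a set of sham and CKD Balb/c mice fed a normal diet for 8 weeks, and other sets kept for longer. The labels name no genetic change or drug in either group. A heart here is all of its cells together, so fewer endothelial cells and less RNA per endothelial cell cannot be told apart.

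Endothelial cells line every vessel and are the most direct responders to VEGF. VEGF-A, the product of Vegfa, is made in the heart largely by muscle cells and binds the receptor VEGFR2, the product of Kdr, which carries most of the signal for growth, survival and permeability. VEGFR1, the product of Flt1, binds VEGF-A, VEGF-B and PlGF tightly but signals weakly, and it also exists as a soluble form that traps ligand. In the angiopoietin system, angiopoietin 1 activates the receptor Tie2 (the gene Tek) and keeps vessels quiet, whereas angiopoietin 2 is stored by endothelial cells and mostly opposes it. PECAM-1 (the gene Pecam1, also known as CD31) and VE-cadherin (the gene Cdh5) hold neighbouring endothelial cells together.

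The promoters of the VEGF receptor genes Kdr and Flt1 are shown because the difference between these receptors within an array separated the groups, as described further on. Each is the stretch of 250 bases before the start site, 5′ to 3′ on the strand of the gene, from RefSeq, build GRCm38.p6. The capitals mark the core of the hypoxia response element (ACGTG or GCGTG) and the core bound by ETS factors (GGAA), each on either strand, with no base shared between the motifs. Kdr lies at chr5:75978456-75978705 on the minus strand and Flt1 at chr5:147726012-147726261 on the minus strand.
Kdr: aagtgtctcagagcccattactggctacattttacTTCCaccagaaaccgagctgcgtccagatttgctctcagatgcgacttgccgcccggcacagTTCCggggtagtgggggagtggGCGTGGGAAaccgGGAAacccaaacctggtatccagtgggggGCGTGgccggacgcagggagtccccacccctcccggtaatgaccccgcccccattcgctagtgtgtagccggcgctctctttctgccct
Flt1: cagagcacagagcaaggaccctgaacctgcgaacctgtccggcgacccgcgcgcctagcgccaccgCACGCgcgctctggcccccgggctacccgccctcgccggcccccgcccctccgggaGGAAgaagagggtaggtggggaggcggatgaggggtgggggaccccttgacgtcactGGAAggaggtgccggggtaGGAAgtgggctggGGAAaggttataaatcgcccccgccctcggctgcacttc
The window of Kdr held 2 hypoxia cores and 4 ETS cores, and the window of Flt1 held 1 and 4. Of 32851 promoter windows of the same length, 38.6% held a hypoxia core, 93.4% held an ETS core and 54.7% held 3 or more ETS cores. These matches describe the sequence and are no sites shown to be bound. The promoter table also held Vegfa, Vegfb, Pgf and Tek, so 6 of the 10 genes were matched.

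The values are log2 levels set by the authors to the same distribution on every array. The array medians lay between 4.83 and 4.86, and the arrays correlated at 0.9813 to 0.9954 over all genes. The heart muscle markers (mean log2 level of 13 genes) stood between 17.4 and 17.7 on all arrays. Single markers differed in spread: Myl2, Tnnt2, Atp2a2 and Pln stayed within 19.84 to 19.95, whereas Myh7 ran from 14.64 to 17.49. Other features separated the arrays. The mean log2 level of 10 atrial muscle markers was 7.53 to 10.1 in sham and 9.40 to 12.5 in CKD hearts, with sham replicate 1 among the CKD values and CKD replicate 3 the highest, and 4 of the 10 genes were higher. The mean of 13 macrophage markers was 7.81 to 9.14 in sham and 7.46 to 8.56 in CKD hearts, with 4 of the 13 lower. The 3 Y-linked genes measured were at 1.24 to 2.17 in sham replicates 2 and 3, near the bottom of the scale, against 2.73 to 7.97 in the other arrays, although the methods call the mice male. Values with sham replicate 1 as the lone sham heart, an alternative chosen after the data were seen that assumes this heart to vary like the CKD hearts, are therefore given for the named genes whose sign or call they turn. A part of these features in any result below was not tested.

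None of the 10 genes passed the criterion in CKD against sham hearts, which asked for more than a 1.5-fold difference and for an unadjusted limma p under 0.05. Of all genes, 6.32% passed it (3.19% lower and 3.13% higher in CKD), so a count of 0 of 10 lies near that share. Kdr had the largest change, 1.42-fold lower, and was the only gene of the 10 with an unadjusted p under 0.05, a limit that 9.14% of all genes met without the fold. For none of the 10 did the CKD values stand apart from the sham values, as they did for 13.6% of all genes. The adjusted p over all genes ran from 0.533 to 0.990 (limma), and an adjusted p under 0.05 was reached by 2 genes of the whole array (0.0103%). The median log2 fold change of the 10 genes was −0.13, against −0.003 for all genes, with 7 negative and 3 positive (50.7% of all genes were negative). The 95% confidence interval reached a 1.5-fold fall for 8 of the genes and a 1.5-fold rise for 5, so the arrays do not show that these genes were equal in both groups.

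**Figure D1:**
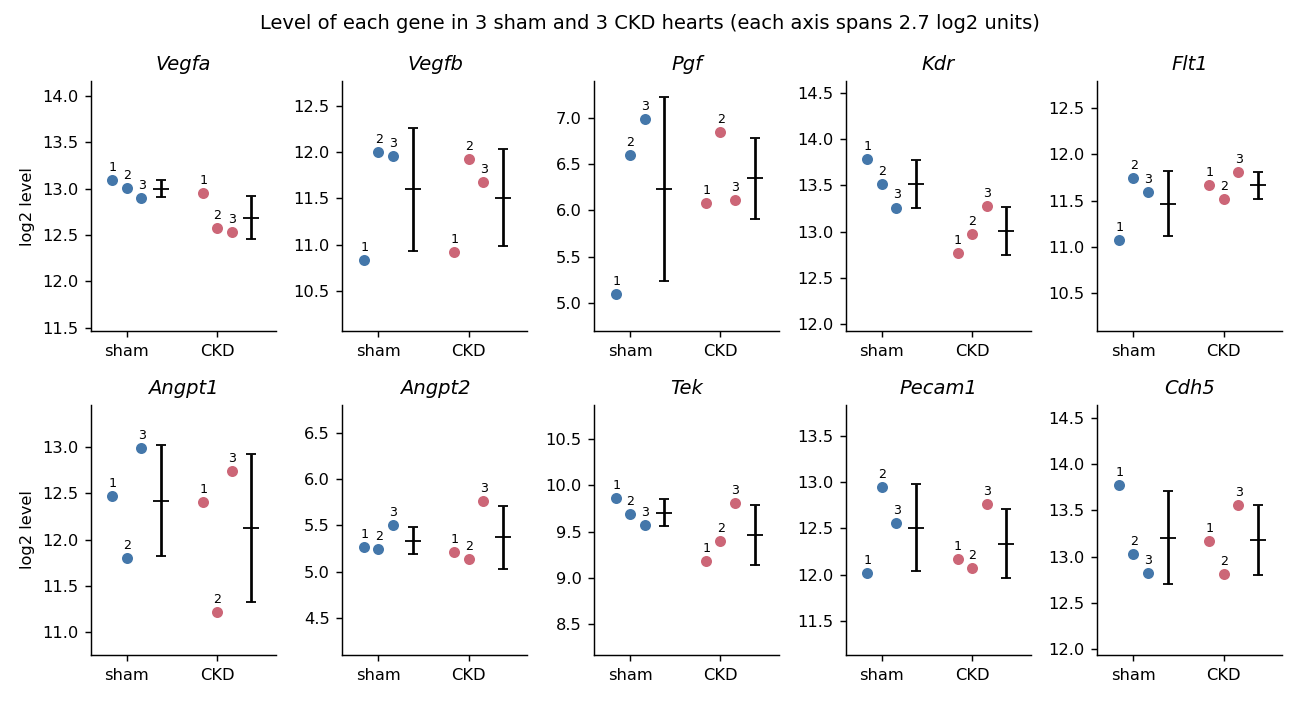
Log2 level of each gene (vertical axis, 2.7 units in every panel) in the 3 sham (blue) and 3 CKD (red) hearts. Numbers give the replicate, and black marks give the mean and SD of each group. The groups overlap in every panel, and Pgf, Vegfb and Angpt1 spread most within a group.

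Among the VEGF ligands, Vegfa varied least between arrays, and its level was slightly lower in CKD without passing the test. Its log2 level was 13.09, 13.01 and 12.90 in sham replicates 1 to 3 and 12.95, 12.57 and 12.53 in CKD replicates 1 to 3. Thus 2 CKD hearts lay below all sham hearts, and CKD replicate 1 lay among them. The means were 13.00 ± 0.10 (SD, n = 3) in sham and 12.68 ± 0.23 (SD, n = 3) in CKD, a log2 fold change of −0.32 with a 95% confidence interval of −0.76 to 0.13 (adjusted p = 0.687, limma). The sign was negative with any single array left out, from −0.45 to −0.24.

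Vegfb, whose product binds VEGFR1 and is abundant in heart muscle, was at 10.83, 12.00 and 11.96 in sham and 10.92, 11.92 and 11.68 in CKD hearts. Replicate 1 was the lowest array of each group, and the spread within groups far exceeded the difference of −0.09 between them (95% confidence interval −0.92 to 0.74, adjusted p = 0.966, limma). The sign turned when a single array was left out: 0.11 without sham replicate 2, 0.09 without sham replicate 3 and 0.20 without CKD replicate 1. It was 0.68 with sham replicate 1 as the lone sham heart. Pgf, the gene of placental growth factor, was at 5.10, 6.60 and 6.99 in sham and 6.08, 6.85 and 6.11 in CKD hearts. Sham replicate 1 was lowest and sham replicate 3 highest of all arrays, and the log2 fold change was 0.12 (95% confidence interval −0.90 to 1.14, adjusted p = 0.964, limma). Leaving out sham replicate 1 gave −0.45, leaving out CKD replicate 2 gave −0.14, and the difference was 1.25 with sham replicate 1 as the lone sham heart, where Pgf passed the criterion.

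Kdr, the main signalling receptor for VEGF-A, was at 13.78, 13.51 and 13.26 in sham and 12.77, 12.97 and 13.28 in CKD hearts. The groups met only at their edge, where CKD replicate 3 lay just above sham replicate 3. The means were 13.52 ± 0.26 (SD, n = 3) and 13.01 ± 0.26 (SD, n = 3), and the log2 fold change was −0.51 (standard error 0.22, 95% confidence interval −1.01 to −0.01, adjusted p = 0.533, limma). The unadjusted p was 0.0462 by limma. The fold was below the limit of 1.5, and Kdr passed it without sham replicate 3 (−0.64) or without CKD replicate 3 (−0.65), where the adjusted p was 0.849 and 0.715 (limma). Leaving out replicate 1 of the sham or of the CKD group gave −0.38 and −0.39, and array weights gave −0.34. Over the alternatives that keep all arrays the unadjusted limma p of Kdr ran from 0.0431 to 0.126, and over all alternatives its adjusted p ran from 0.455 to 0.972. An exact two-sided permutation test of 3 against 3 hearts cannot go below p = 0.1.

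Flt1, the decoy-like receptor, was at 11.07, 11.74 and 11.59 in sham and 11.67, 11.52 and 11.81 in CKD hearts. Sham replicate 1 was low and the other 5 arrays lay within 0.29 of each other. The log2 fold change was 0.20 (95% confidence interval −0.31 to 0.71, adjusted p = 0.850, limma), and 0.002 without sham replicate 1. A probe set of the array cannot be assigned here to the membrane-bound or the soluble form.

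The 2 receptors for VEGF thus had opposite signs. Within each array the Kdr level minus the Flt1 level was 2.71, 1.77 and 1.67 in sham and 1.10, 1.45 and 1.47 in CKD hearts, so every CKD value lay below every sham value. The mean difference fell by 0.71 from 2.05 ± 0.57 (SD, n = 3) to 1.34 ± 0.21 (SD, n = 3), which was 0.38 without sham replicate 1. This pair was picked after its values had been seen, so it carries no test. Among all 45 pairs of the 10 genes, 2 had groups that did not overlap, 4.44%, the other being Kdr with Tek, whose difference fell by 0.27. Of all single genes 13.6% had groups that did not overlap, and the share over pairs of all genes was not computed. The shift of Kdr against Flt1 is a difference between changes within an array and says nothing of which receptor was more abundant.

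**Figure D2:**
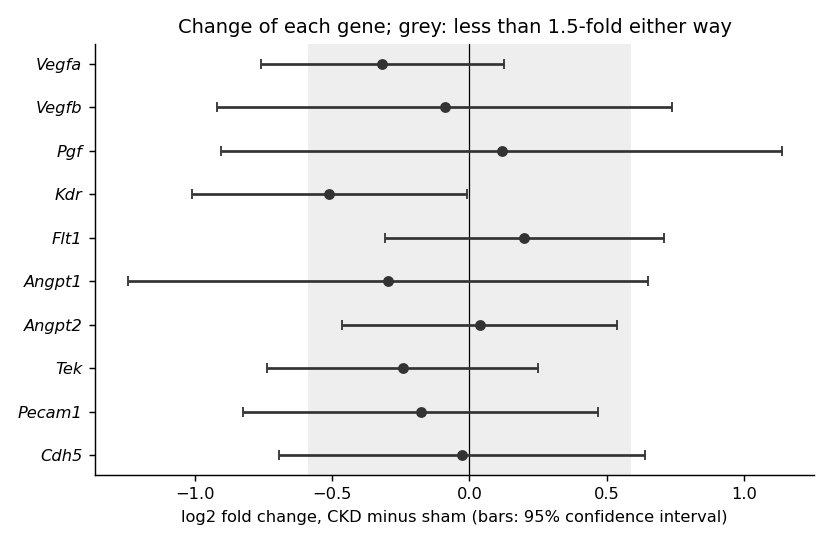
Log2 fold change of each gene, CKD minus sham (horizontal axis), with its 95% confidence interval from limma. Grey marks changes of less than 1.5-fold. Kdr is the only gene whose interval, −1.01 to −0.01, leaves out 0, and all 10 estimates lie inside the grey band.

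In the angiopoietin system no member passed the criterion. Angpt1, mainly a product of mural cells and fibroblasts that steadies vessels through Tie2, was at 12.47, 11.80 and 12.99 in sham and 12.41, 11.22 and 12.74 in CKD hearts. Replicate 2 was the lowest of each group, and the log2 fold change was −0.30 (95% confidence interval −1.24 to 0.65, adjusted p = 0.887, limma), or 0.16 without CKD replicate 2. Angpt2, the antagonist, was at 5.26, 5.24 and 5.50 in sham and 5.21, 5.14 and 5.76 in CKD hearts, a difference of 0.04 (95% confidence interval −0.46 to 0.54, adjusted p = 0.980, limma). Its levels stood close to the median of all genes, 4.94, and the files give no detection calls. The Angpt2 level minus the Angpt1 level was −7.21, −6.56 and −7.49 in sham and −7.20, −6.08 and −6.98 in CKD hearts, a shift of 0.33 with overlapping groups that was −0.003 without CKD replicate 2.

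Tek, the angiopoietin receptor, was at 9.86, 9.69 and 9.57 in sham and 9.18, 9.40 and 9.81 in CKD hearts. CKD replicates 1 and 2 lay below all sham hearts and CKD replicate 3 among them, which is the order that Kdr showed as well. The log2 fold change was −0.24 (95% confidence interval −0.73 to 0.25, adjusted p = 0.802, limma) and between −0.42 and −0.10 with single arrays left out. Of the 7 measured genes of the angiopoietin and Tie system none passed. Tie1, the orphan partner of Tie2, had a log2 fold change of −0.47 (adjusted p = 0.664, limma), and Ptprb, a phosphatase that restrains Tie2, of 0.47 (adjusted p = 0.658, limma).

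The junction genes did not follow one another. Pecam1 was at 12.02, 12.95 and 12.56 in sham and 12.17, 12.07 and 12.76 in CKD hearts, with a log2 fold change of −0.18 (95% confidence interval −0.82 to 0.47, adjusted p = 0.902, limma). Sham replicate 1 was its lowest array, and the difference was 0.04 without sham replicate 2 and 0.31 with sham replicate 1 as the lone sham heart. Cdh5 was at 13.77, 13.03 and 12.82 in sham and 13.17, 12.81 and 13.56 in CKD hearts, with a log2 fold change of −0.03 (95% confidence interval −0.69 to 0.64, adjusted p = 0.990, limma). Here sham replicate 1 was the highest array, in contrast to Pecam1. The sign for Cdh5 turned without sham replicate 1 (0.26) or without CKD replicate 2 (0.16). Pecam1 is also carried by platelets and leukocytes. Of 7 platelet markers, 1 was lower and none higher, and their mean log2 level was 5.26 to 5.54 in sham and 4.86 to 5.29 in CKD hearts.

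**Figure D3:**
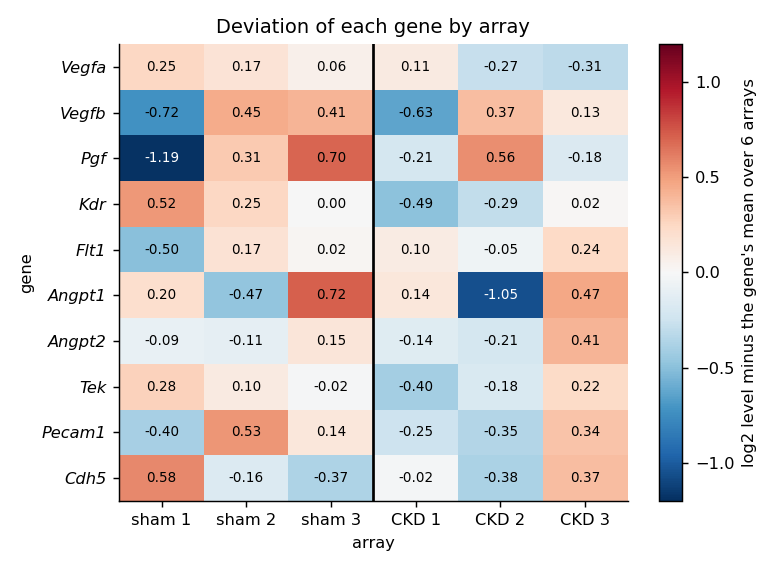
Log2 level of each gene minus its mean over the 6 arrays (colour and printed number), with arrays in columns and the groups split by the black line. Sham 1 is low for Vegfb, Pgf, Flt1 and Pecam1 and high for Kdr and Cdh5. CKD 3 is high for Angpt1, Angpt2, Pecam1 and Cdh5.

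The 10 genes did not share a single pattern over the arrays. Over the 6 arrays Kdr and Tek ran together (Pearson r = 0.91), as did Vegfb and Pgf (0.86), while Pgf and Cdh5 ran opposite (−0.93). Kdr and Pecam1, both of endothelial cells, had an r of 0.22, and Pecam1 and Cdh5 one of −0.14. These are descriptions over 6 arrays that share their 2 groups and the atypical arrays named above, and carry no test. The mean of Kdr, Flt1, Tek, Pecam1 and Cdh5, each centred on its own mean, was 0.09, 0.18 and −0.05 in sham and −0.21, −0.25 and 0.24 in CKD hearts, so CKD replicate 3 was the highest of all. Of 9489 genes no dimmer than the median gene, Wdr60 (Pearson r = 0.99), Tti2, Stx12, Senp6 and Ryr2, the calcium release channel of heart muscle (r = 0.97), followed this mean most closely over the 6 arrays. Wdr82, Sipa1l3, Haus8, Zfp39 and Rnaseh2c followed Vegfa most closely, with r from 0.985 to 0.997. Both sets were picked as the highest r among all genes searched over only 6 arrays. Values this high can come from that selection alone, and they carry no test.

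The VEGF family list adds further ligands and receptors to Vegfa, Vegfb, Pgf, Kdr and Flt1. Of its 9 measured genes none passed the criterion, with a median log2 fold change of −0.06. Vegfd, a ligand of lymphatic vessels, was at 5.49, 6.02 and 5.77 in sham and 6.00, 6.07 and 7.08 in CKD hearts (log2 fold change 0.62, adjusted p = 0.590, limma). CKD replicate 3 stood apart from the other arrays there. Flt4, the receptor for VEGF-C and VEGF-D, had 0.29 (adjusted p = 0.760, limma) and the co-receptor Nrp2 −0.29 (adjusted p = 0.853, limma). Nrp1 was not analysed here. None of 8 lymphatic markers passed.

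Among the wider endothelial genes, 2 of 22 measured endothelial cell markers were lower in CKD and none was higher (3.19% and 3.13% of all genes). Of the 22 log2 fold changes 17 were negative, with a median of −0.29, where 50.7% of all genes were negative. The list holds Kdr, Flt1, Tek, Pecam1 and Cdh5 themselves, and its mean level was 8.995 to 9.225 in sham and 8.59 to 9.055 in CKD hearts, where the groups overlapped. By vessel type the signs differed. Capillary markers had 7 negative and 5 positive log2 fold changes, arterial markers 6 and 6, venous and endocardial markers 4 and 8, and lymphatic markers 7 and 1. Aplnr, the apelin receptor of endothelial cells, was at 8.23, 6.69 and 6.44 in sham and 5.86, 5.29 and 5.98 in CKD hearts. The fold change (log2) came to −1.41 (standard error 0.43, adjusted p = 0.398, limma), or −0.86 without sham replicate 1, which was the highest array. By the methods' t-test Aplnr did not pass. Cd93, a surface protein of endothelial cells in growing vessels, was at 9.13, 8.61 and 8.00 in sham and 7.71, 7.92 and 7.93 in CKD hearts (−0.73, standard error 0.28, adjusted p = 0.478, limma). Each CKD value of these genes lay below every sham value, though the call for Cd93 was lost without sham replicate 1 (−0.45), sham replicate 2 (−0.71), CKD replicate 1 (−0.66) or CKD replicate 3 (−0.77). Cd93 was also the only gene of 22 junction and surface genes to pass, with 16 of the 22 log2 fold changes negative (50.7% over all genes) and a median of −0.19. Many of these genes are also in the list of endothelial cell markers, so the sign counts of the lists are not separate. Of the junction genes outside that list, F11r, Cd34, Ctnna1 and Jup were negative. Jam2, Jam3, Mcam, Tjp1, Ocln and Ctnnd1 were positive. The call for Cd93 was also lost with array weights (−0.56) and by the methods' t-test. Cldn5, a tight junction gene, was at 6.95, 7.12 and 6.74 in sham and 6.21, 6.56 and 6.38 in CKD hearts, with the groups apart and a fold of 1.47, short of the limit (adjusted p = 0.453, limma).

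Of 21 endothelial transcription factors, 2 were lower and none higher (3.19% and 3.13% of all genes), with a median of −0.03. Klf2, which responds to blood flow and restrains inflammation of the vessel wall, was at 7.09, 7.49 and 6.96 in sham and 6.12, 6.61 and 6.90 in CKD hearts (log2 fold change −0.64, standard error 0.25, adjusted p = 0.488, limma). Klf4, its relative, was at 6.93, 7.67 and 7.05 in sham and 6.48, 6.75 and 6.28 in CKD hearts (−0.71, standard error 0.25, adjusted p = 0.453, limma). The groups were apart for both, but the call was lost without sham replicate 2 for Klf2 (−0.48) and Klf4 (−0.49), without CKD replicate 1 or 2 for Klf2 (−0.43 and −0.67) and without CKD replicate 3 for Klf4 (−0.60). By the methods' t-test neither passed, and Klf2 did not pass with array weights (−0.53). With sham replicate 1 as the lone sham heart neither passed (−0.55 for Klf2 and −0.43 for Klf4). Erg, the ETS factor that maintains endothelial identity, had a log2 fold change of 0.02 (adjusted p = 0.988, limma). Macrophages make Klf2 and Klf4 too, and 4 of 13 macrophage markers were lower, whose part here was not tested.

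**Figure D4:**
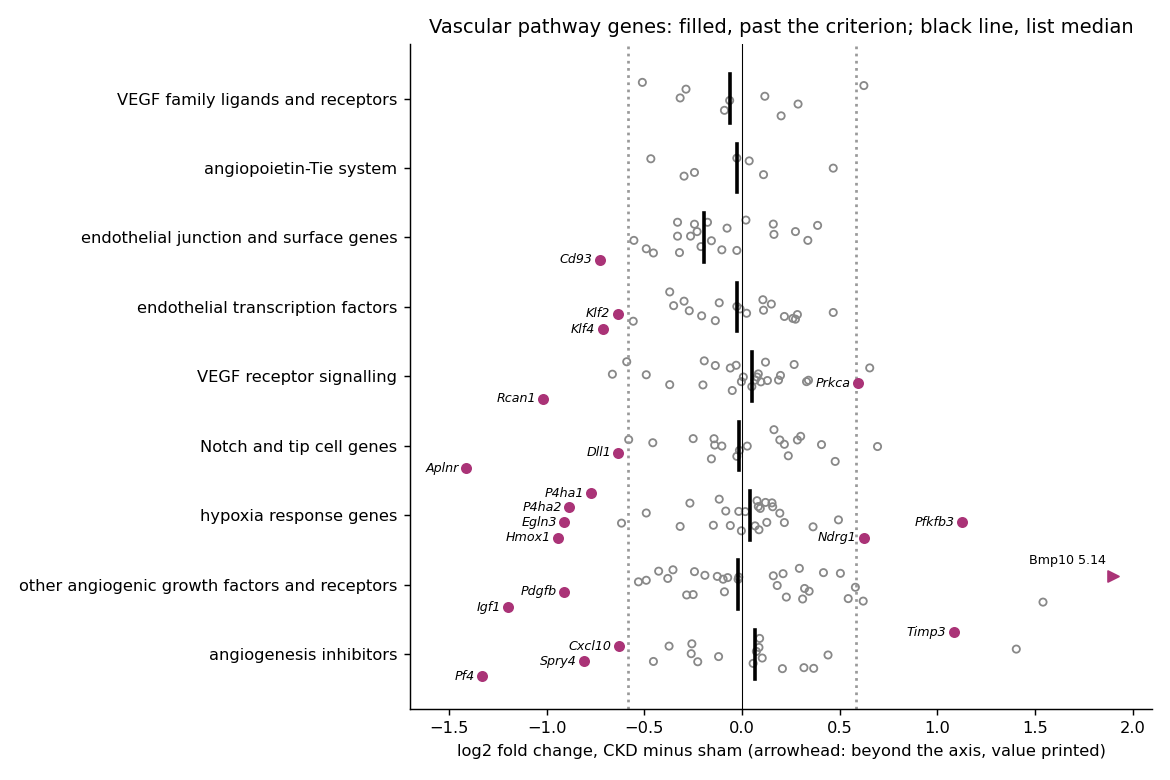
Log2 fold change, CKD minus sham (horizontal axis), of every measured gene of 9 vascular lists. Filled points passed the criterion, black lines are list medians, dotted lines mark a 1.5-fold change and the arrowhead gives Bmp10 at 5.14. The VEGF and angiopoietin rows hold no filled point, and the list medians lie between −0.19 and 0.07.

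Over all vascular lists, 15 of the 176 measured genes other than the 10 were lower in CKD, 5 were higher and 156 did not pass. That is 11.4% past the criterion, against 6.32% of all genes. The lists were chosen with earlier results of these data known, so this share is no independent measure and carries no test. Of the 20 genes that passed, 18 had groups that did not overlap (13.6% of all genes did not, but passing the criterion favours such genes). The call held for 8 with each array left out in turn, and 12 did not pass by the methods' t-test. These 12 were Aplnr, Bmp10, Cd93, Hmox1, Klf2, Klf4, Ndrg1, P4ha1, P4ha2, Pdgfb, Spry4 and Timp3. With sham replicate 1 as the lone sham heart the sign turned for 1 of the 20, P4ha2, and the difference shrank for others, such as Hmox1 (−0.94 to −0.09). It grew for others, such as Aplnr (−1.41 to −2.52) and Cd93 (−0.73 to −1.28). Dll1 (−0.63 to −0.73), Cxcl10 (−0.63 to −0.73) and Ndrg1 (0.62 to 0.78) were among those that grew. These last 3 genes still lost the call in that fit, which holds fewer arrays, so a lost call there need not mean a smaller difference. Of 27 measured genes of signalling below VEGFR2, Rcan1, an inhibitor of calcineurin that VEGF induces, was at 10.94, 11.46 and 11.68 in sham and 10.62, 10.01 and 10.40 in CKD hearts. All its CKD values lay below the sham values (log2 fold change −1.02, standard error 0.25, adjusted p = 0.338, limma), though with sham replicate 1 as the lone sham heart it did not pass (−0.60). The kinase gene Prkca was higher (0.59, adjusted p = 0.417, limma), a call that needed sham replicates 2 and 3 (0.57 and 0.53 when either was left out) and CKD replicate 3 (0.53 when left out) and that did not hold with the lone sham heart (0.42). Nos3, the gene of endothelial nitric oxide synthase, had 0.08 (adjusted p = 0.958, limma). Of 21 Notch and tip cell genes, Dll1, a Notch ligand, was lower (−0.63, with the call lost without CKD replicate 3, at −0.50, and with the lone sham heart, at −0.73) beside Aplnr, and none was higher.

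Of 30 hypoxia response genes, which include Vegfa, 4 were lower and 2 were higher (3.19% and 3.13% of all genes), with a median of 0.04. Egln3, an oxygen-sensing hydroxylase (log2 fold change −0.91, adjusted p = 0.346, limma), Hmox1 (−0.94) and the collagen hydroxylases P4ha1 (−0.77) and P4ha2 (−0.88) were lower. Pfkfb3, an activator of glycolysis (1.13, adjusted p = 0.338, limma), and Ndrg1 (0.62) were higher. Egln3 and Pfkfb3 passed with any array left out. With sham replicate 1 as the lone sham heart all 4 lower genes lost the call, at −0.46 for Egln3, −0.09 for Hmox1, −0.06 for P4ha1 and 0.03 for P4ha2, whose sign turned, and so did Ndrg1 (0.78). The calls were lost for Hmox1 (−0.65) and P4ha1 (−0.64) and P4ha2 (−0.70) without sham replicate 2, for these 3 (−0.81, −0.55 and −0.61) and Ndrg1 (0.63) without sham replicate 3, and for all 4 without CKD replicate 3 (−0.92, −0.81, −0.82 and 0.45). Further losses were Ndrg1 without sham replicate 1 (0.55) or CKD replicate 1 (0.58), P4ha1 without CKD replicate 1 (−0.67) and P4ha2 without CKD replicate 2 (−0.85). Hmox1 is strongly made by macrophages, of whose 13 markers 4 were lower, and their part here was not tested. The glucose transporter Slc2a1, a classic target of hypoxia, had 0.16 (adjusted p = 0.897, limma) and Hif1a 0.09 (adjusted p = 0.952, limma). The −0.32 of Vegfa did not pass.

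Of 32 other angiogenic growth factors and receptors, Igf1 (2.29-fold lower, adjusted p = 0.336, limma) and Pdgfb (log2 fold change −0.91, standard error 0.28, adjusted p = 0.398, limma) were lower. Igf1 is made by several stromal cells and macrophages, and Pdgfb by endothelial cells to draw in pericytes. With sham replicate 1 as the lone sham heart neither passed (−0.94 for Igf1 and −0.37 for Pdgfb). Bmp10 was higher (5.14, standard error 1.46, adjusted p = 0.365, limma), and it ranged from 0.97 to 5.67 in sham and from 6.05 to 11.02 in CKD hearts. Its call was lost with trended and robust moderation (adjusted p = 0.599, limma), by the methods' t-test and, at 2.18, with the lone sham heart. Over all its alternatives its adjusted p (limma or the methods' t-test) ran from 0.0516 to 0.977. Bmp10 is a ligand of the endothelial receptor ALK1 and also one of the atrial muscle markers given above. Of 20 inhibitors of angiogenesis, Timp3, which blocks VEGF-A from VEGFR2, was higher (1.08, adjusted p = 0.443, limma), and 0.79 with the call lost without CKD replicate 3. The chemokine genes Pf4 (−1.33, adjusted p = 0.336, limma) and Cxcl10 (−0.63) and the feedback inhibitor Spry4 (−0.81) were lower. Leaving out sham replicate 1 ended the calls of Cxcl10 (−0.58) and Spry4 (−0.66), as did leaving out CKD replicate 2 for Cxcl10 (−0.47) and CKD replicate 3 for Spry4 (−0.54). Cxcl10 did not pass with the lone sham heart (−0.73). Pf4 is a product of platelets and some macrophages, and it is the platelet marker that was lower.

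Of the endothelial markers by vessel type, 1 of 12 capillary and 1 of 12 arterial genes were lower and none of 12 venous and endocardial genes passed. The lower capillary gene was Aplnr, already given above, and the capillary list also holds Kdr. Among markers of neighbouring cells, 2 of 14 mural cell genes were higher, the smooth muscle genes Cnn1 and Myh11, and Vtn was lower. Of all genes, 3.19% were lower and 3.13% higher by the criterion. Of 11 fibroblast genes 1 was lower, and none of 12 adipocyte or 13 ventricular muscle genes passed. Of 3 measured red blood cell genes Alas2, a gene of heme synthesis, was higher (log2 fold change 2.96, adjusted p = 0.448, limma). The mean log2 level of the 3 was 5.82 to 7.35 in sham and 6.96 to 8.45 in CKD hearts, so the groups overlapped, and their part in the results on vascular genes was not tested.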

How the data were processed

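Heart RNA of 3 sham and 3 CKD mice was measured on Affymetrix Clariom S arrays, and the grouping comes from the sample labels. The authors deposited log2 levels from RMA, a tool named in the submitters' notes without a version, which subtracts background, equalises the distributions of the arrays and summarises each probe set. Of 22206 probe sets, 19572 had 1 gene symbol in the platform annotation, 0 had several and 2634 were unnamed here, which left 19505 genes after the brightest of several probe sets was kept. All arrays entered lmFit and eBayes of limma 3.58.1 (R 4.3.3), tested on simulated data, without covariates. The criterion, more than 1.5-fold and an unadjusted p under 0.05, follows the methods, and p adjusted by Benjamini-Hochberg over all genes stands beside it. Precision is limited by how few arrays there are, and nothing beyond the labels shows how far the mice were independent. Named genes are the 10 listed, the vascular list genes past the criterion (over 6 of a list, the 6 smallest p) and the 5 closest patterns to Vegfa and to the endothelial mean among genes no dimmer than the median gene, leaving out predicted genes, smell and taste receptors, small RNAs and antigen receptor segments. The genes and lists were chosen with earlier results of these data known. List genes named without passing were chosen after their values were seen. Of the mouse promoter sequences, the 250 bases before the start were used. Tried beside this were 3 renormalizations, 2 filters on dim genes, array weights, trended and robust moderation, the methods' t-test, averaging of probe sets, a block for the replicate number, other limits, each array left out and, added after seeing the data, sham replicate 1 as the lone sham array.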

Additional observations from a re-analysis of the deposited data

How the results depend on the processing

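The count of 0 among the 10 genes held with the methods' t-test, eBayes options, array weights, the renormalizations, the filters, the mean of probe sets and a fold limit of 2, and 0 reached an adjusted p under 0.05. It was 0 to 1 with single arrays left out, 1 with a fold limit of 1.2 (Kdr) and 1 with sham replicate 1 as the lone sham array (Pgf). Over all genes 1233 passed, against 625 with the methods' t-test, 2051 with array weights, 285 with a fold limit of 2, 2 at an adjusted p under 0.05 and 982 to 2037 with single arrays left out, the highest without CKD replicate 1. The sign turned for Pgf (−0.24) and Cdh5 (0.24) with array weights and for Cdh5 after quantile normalization (0.0128). With sham replicate 1 alone it turned for Vegfb (0.68), Pecam1 (0.31) and P4ha2 (0.0267). With single arrays left out, the range was −0.47 to 0.20 for Vegfb, −0.45 to 0.50 for Pgf, −0.61 to 0.16 for Angpt1, −0.16 to 0.15 for Angpt2, −0.42 to 0.0433 for Pecam1 and −0.22 to 0.26 for Cdh5, while Vegfa, Kdr, Flt1 and Tek kept their sign. The cause was not tested. With the replicate number as a block 0 of the 10 genes and 1201 of all genes passed, and the unadjusted p of Kdr was 0.0885. Deviations of same-numbered sham and CKD arrays correlated at −0.18, −0.03 and −0.19, and those of differently numbered arrays at −0.162 to 0.245. With so few arrays in a group these values cannot tell whether the numbers pair the mice. A figure caption of the paper speaks of pairs of sham and CKD mice.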
